A study of Homo sapiens with 6 samples.

Results

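The 45 genes described here encode proteins of the lysosome, and were chosen by name as a list of cathepsins, other lysosomal hydrolases, their activators and lysosomal membrane proteins, out of 60612 genes in the count table. The list names genes by function and uses no threshold on a measured value, but it was chosen with earlier results of these data known. RNA sequencing compared 3 libraries of U87 cells that received a scramble shRNA (NC) with 3 libraries of U87 cells that received an shRNA against PRMT6 (shPRMT6), an arginine methyltransferase that modifies histones and other proteins. U87 is an established human glioblastoma line. In both groups the shRNA was delivered by lentivirus with polybrene and stable cells were selected with puromycin, so NC cells carry the virus and an shRNA as well. Which PRMT6 shRNA was sequenced, and whether the 3 shPRMT6 libraries carry the same one, is not given in the sources used here. An effect of the hairpin sequence and an effect of the loss of PRMT6 cannot be told apart.

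The lysosome is the acidic compartment in which cells take apart proteins, sugars, sulfated glycans and lipids that arrive by endocytosis or autophagy. Its soluble hydrolases are made in the endoplasmic reticulum and most reach the lysosome on mannose 6-phosphate receptors, while its membrane holds heavily glycosylated shield proteins and the carriers that let cholesterol, amino acids and ions out. The MiT/TFE transcription factors (TFEB, TFE3 and MITF) are known to raise many lysosomal genes together by binding a promoter element called CLEAR, whose centre is the palindrome TCACGTGA. Many of the genes are known for inherited lysosomal storage disorders, and several cathepsins have long been studied in glioma invasion.

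To show what that element looks like in these genes, RefSeq promoters on GRCh38.p14 were searched from 250 bases before to 50 bases after each annotated start. Of the 45 genes 33 had a promoter, and 12 had no entry. The palindrome TCACGTGA reads the same on both strands and contains the shorter CACGTG. It was present in at least 1 promoter of 6 of the 33 genes (CLN3, CTSA, GAA, GALNS, LAMP1 and MCOLN1). Counted by promoter rather than by gene, it was present in 0.98% of the 35116 promoters searched. The windows of 30 bases that hold it before the start are printed 5′ to 3′ on the strand of the gene, with the palindrome in capitals. LAMP1 and MCOLN1 each held 2 copies, of which 1 is printed, and the match in CLN3 is not printed.
LAMP1, chr13:113297199-113297228, plus strand: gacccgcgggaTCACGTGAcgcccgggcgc
GALNS, chr16:88857104-88857133, minus strand: caggcaccgcgTCACGTGAcccgccgctgg
GAA, first copy, chr17:80101493-80101522, plus strand: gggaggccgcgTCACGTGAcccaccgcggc
GAA, next copy, chr17:80101538-80101567, plus strand: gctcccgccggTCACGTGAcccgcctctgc
MCOLN1, chr19:7522571-7522600, plus strand: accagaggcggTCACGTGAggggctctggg
CTSA, chr20:45891298-45891327, plus strand: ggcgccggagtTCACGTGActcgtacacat

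The libraries held 56388161 to 75887696 counts. Counts were scaled by edgeR's TMM factors (0.992 to 1.01) to CPM, the counts of a gene relative to the size of its library. Each difference was tested by a quasi-likelihood F test in edgeR, and p-values were adjusted by the Benjamini-Hochberg procedure over the 18106 genes that passed the filter on low counts. PRMT6 itself stood at 9.33, 7.97 and 7.19 CPM in the NC libraries and at 3.57, 4.58 and 5.24 CPM in the shPRMT6 libraries, a log2 fold change of -0.87 (SE 0.187, adjusted p = 0.0225). The adjusted p was above 0.05 when NC replicate 1, shPRMT6 replicate 1 or shPRMT6 replicate 2 was left out (0.0613, 0.0588 and 0.0713). Of the markers of the line, VIM (7988 CPM in NC) and CD44 (568 CPM) were abundant, NES (40.9 CPM) and OLIG2 (2.55 CPM) were present, GFAP and SOX2 stayed under 1 CPM in both group means and S100B had no counts. CHI3L1, the secreted glycoprotein YKL-40, was the marker that changed, from 3.51 to 10.8 CPM (log2 fold change 1.62, adjusted p = 0.00294). Of the genes in the region of chromosome 9 known to be lost in U87, CDKN2A and CDKN2B had no counts in NC and at most 4 in a shPRMT6 library, and MTAP had 22, 33 and 27 counts in NC and 25, 10 and 13 counts in shPRMT6. Of 9 markers of macrophages and microglia, cells rich in lysosomes, AIF1, C1QA and C1QB had no counts in any library. The summed level of the 9 was 1.85 to 2.35 FPKM (the deposited level relative to transcript length and library size) in NC and 2.04 to 2.24 FPKM in shPRMT6, nearly all of it CSF1R.

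More lysosomal genes were higher than lower after PRMT6 knockdown. The higher ones included CTSL, the most abundant protease by FPKM, and the activator precursor PSAP. Of the 44 genes tested, 17 passed an adjusted p of 0.05 (38.6%), beside 18.6% of all genes tested. Since the list was chosen with earlier results known, such shares describe it and are no test of it. Higher in shPRMT6 were 13 (29.5%, beside 9.51% of all genes), and 4 were lower (9.09%, beside 9.06% of all genes). The median log2 fold change was 0.16 for the lysosomal genes and -0.01 for all genes, and 31 of 44 had a positive log2 fold change. The 3 NC and 3 shPRMT6 libraries did not overlap for 27 genes (61.4%, beside 40.2% of all genes), of which 20 were higher in shPRMT6. By the threshold in the methods of the study, an absolute log2 fold change above 1 with an unadjusted p under 0.05, only CTSL and CTSO passed (4.55%, beside 5.92% of all genes), so most of the changes were small. Among genes with a mean of at least 1 FPKM, a set closer in abundance, 39.5% of 43 lysosomal genes and 24.8% of 11325 genes passed. In these bulk libraries, fewer cells of a kind and less RNA per cell cannot be told apart.

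The count rests in part on single libraries. With NC replicate 1 left out 15 were called, and with NC replicate 2 left out 14, beside 13.7% and 16.9% of all genes. The count dropped to 7 when NC replicate 3 was missing and to 8, 7 and 8 when the 3 shPRMT6 libraries were left out in turn (replicate 1, then 2, then 3). In these 4 fits the share of all genes called was also smaller, at 9.25% to 10.3%. CTSL, CTSO, CTSS, GAA, GM2A and SGSH passed in each of those 6 fits.

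**Figure D1:**
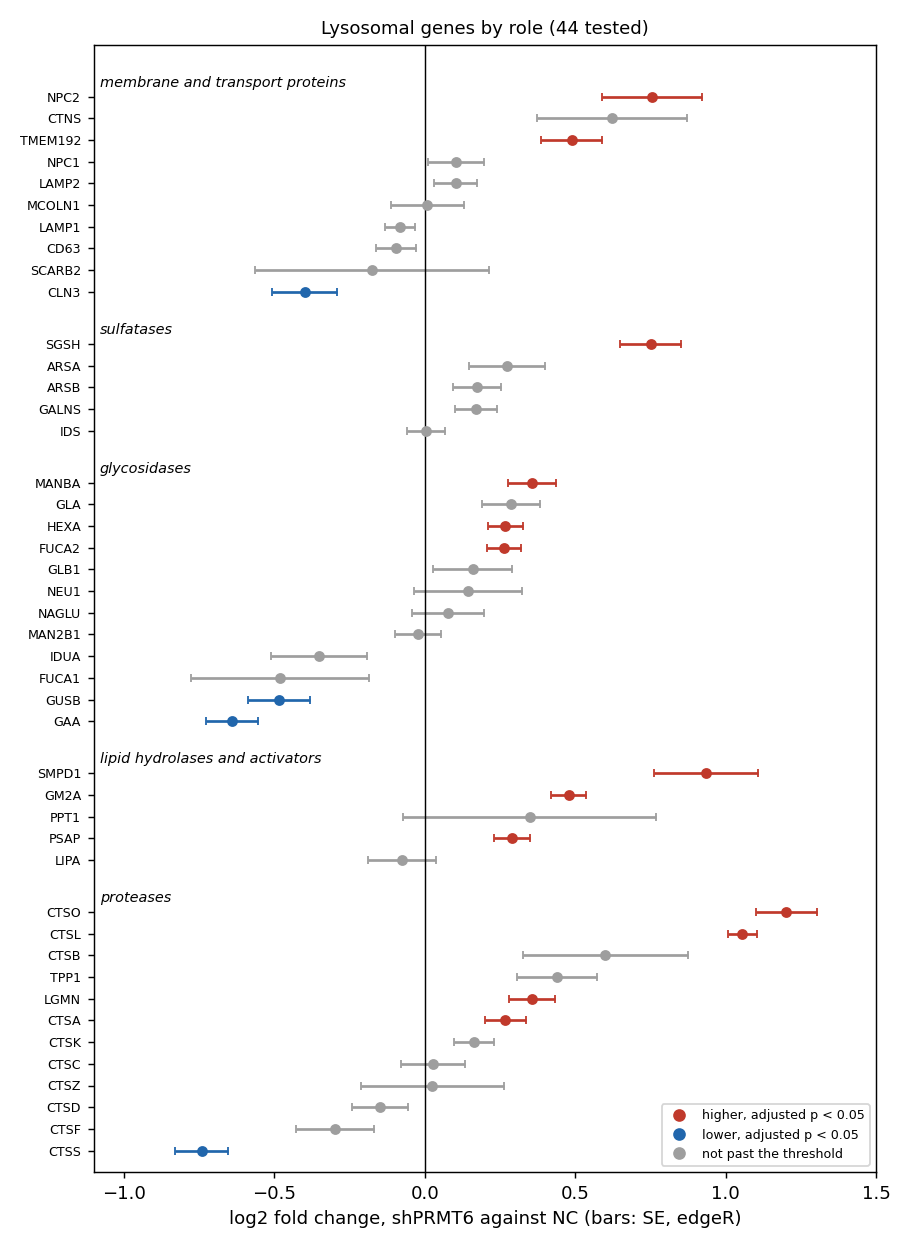
Log2 fold change (shPRMT6 against NC, x axis) of the 44 lysosomal genes tested, grouped by role, with bars for the SE of the edgeR fit. The 13 genes past the threshold on the higher side lie in all 5 role groups, and the 4 on the lower side are CTSS, GAA, GUSB and CLN3.

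Among the proteases, 4 of 12 tested were higher (33.3%, beside 9.51% of all genes) and 1 was lower (8.33%, beside 9.06% of all genes). Their median log2 fold change was 0.22. CTSL, cathepsin L, a cysteine endopeptidase (chr9:87725519-87731393, plus strand), stood at 325, 328 and 311 CPM in NC and at 673, 664 and 666 CPM in shPRMT6. The groups lay far apart and each was tight, with means of 321 ± 9.27 and 668 ± 5.07 CPM (SD, n = 3). On the log2 scale it rose by 1.06 (SE 0.0476, adjusted p = 0.000211), a ratio of 2.08, and the log2 fold change ranged from 1.03 to 1.07 over all 15 alternative settings. CTSO, cathepsin O, another cysteine cathepsin (chr4:155924118-155953917, minus strand), had 5.33, 5.71 and 5.30 CPM in NC and 12.3, 12.9 and 12.4 CPM in shPRMT6. It changed most of the 44 on the log2 scale, by 1.20 (SE 0.101, adjusted p = 0.00118), from 1.58 ± 0.0659 FPKM in NC, far below the 146 ± 3.21 FPKM of CTSL.

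LGMN, legumain, which cuts after asparagine and matures several cathepsins, rose from 32.2 ± 1.55 to 41.3 ± 1.73 CPM (log2 fold change 0.36, SE 0.0759, adjusted p = 0.0219). CTSA, a carboxypeptidase that also protects β-galactosidase and neuraminidase in a complex, rose from 291 ± 21.3 to 350 ± 11.3 CPM (0.27, SE 0.0682, adjusted p = 0.0390). Both lost the call in 4 or 5 of the 6 fits that left out a library. Of the stretches of 75 bases in the transcripts of CTSA, 20.7% also occur in another gene of the annotation, and the library kit does not mark strand. The genes across its exons on the opposite strand include NEURL2, with 1.24 CPM in NC and 0.632 CPM in shPRMT6 over 1038 shared exon bases, and PLTP, with 470 CPM in NC and 311 CPM in shPRMT6 over 200 shared exon bases. Their part in the CTSA counts was not tested.

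CTSS moved the other way. Cathepsin S, a cysteine protease best known from antigen-presenting cells (chr1:150730196-150765957, minus strand), stood at 106, 127 and 122 CPM in NC and at 66.5, 74.0 and 71.7 CPM in shPRMT6. Every NC library was above every shPRMT6 library, and CTSS fell by 0.74 on the log2 scale (SE 0.0873, adjusted p = 0.00300). Its neighbour CTSK, cathepsin K, the collagen-degrading enzyme of osteoclasts, lies on the same strand 30250 bases away and had 161, 182 and 182 CPM in NC and 192, 197 and 197 CPM in shPRMT6 (log2 fold change 0.16, unadjusted p = 0.0457, adjusted p = 0.144). The difference between these neighbours was not tested.

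Of the remaining proteases, TPP1, the tripeptidyl peptidase known from a childhood neuronal lipofuscinosis, had 172, 176 and 143 CPM in NC and 242, 240 and 184 CPM in shPRMT6. The groups did not overlap but the adjusted p was 0.0652 (log2 fold change 0.44, SE 0.133). CTSB, cathepsin B, after CTSL the most abundant cathepsin of the shPRMT6 libraries by FPKM, had 719, 672 and 330 CPM in NC and 903, 802 and 905 CPM in shPRMT6. NC replicate 3 stood apart, and the log2 fold change of 0.60 (SE 0.274) did not pass (adjusted p = 0.184). Without that library it was 0.32. CTSH, an aminopeptidase, was left out by the filter, with 15, 34 and 9 counts in NC and 0, 2 and 0 counts in shPRMT6. CTSC, CTSD, CTSF and CTSZ had log2 fold changes from -0.30 to 0.03 with no call.

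**Figure D2:**
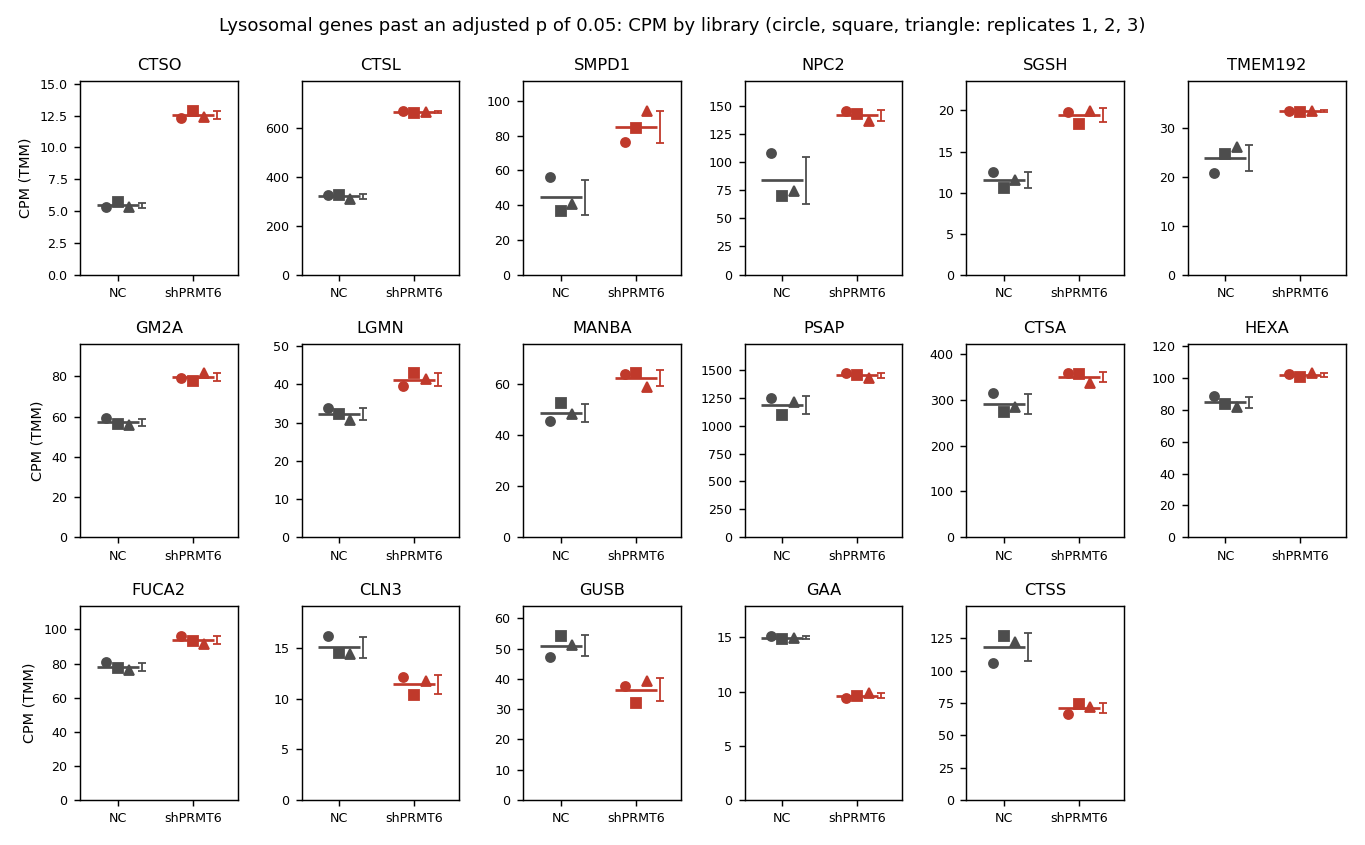
CPM (y axis, from 0) in each of the 6 libraries for the 17 lysosomal genes past an adjusted p of 0.05, with the mean as a line and the SD as a bar (n = 3 in each group). In all 17 panels the NC and shPRMT6 points do not overlap, and for CTSL they lie at 311 to 328 against 664 to 673 CPM.

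The lipid hydrolases and their activators had 3 of 5 genes higher (60%, beside 9.51% of all genes), none lower, and a median log2 fold change of 0.35. SMPD1, acid sphingomyelinase, which makes ceramide from sphingomyelin and is deficient in Niemann-Pick disease types A and B, stood at 56.0, 36.4 and 40.7 CPM in NC and at 76.0, 84.2 and 94.3 CPM in shPRMT6. The groups did not overlap, though both varied, and SMPD1 rose by 0.94 on the log2 scale (SE 0.173, adjusted p = 0.0135). It lost the call without NC replicate 3 or shPRMT6 replicate 3. PSAP, prosaposin, is cut into the saposins that hand sphingolipids to their hydrolases. It had 1245, 1098 and 1216 CPM in NC and 1470, 1451 and 1426 CPM in shPRMT6, with a log2 fold change of 0.29 (SE 0.0594, adjusted p = 0.0195). It lost the call without NC replicate 3 or any shPRMT6 library.

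GM2A, the activator that lifts ganglioside GM2 out of the membrane for β-hexosaminidase, had 59.1, 56.5 and 55.8 CPM in NC and 79.4, 77.8 and 81.6 CPM in shPRMT6. Its groups were tight and apart, and GM2A rose by 0.48 on the log2 scale (SE 0.0592, adjusted p = 0.00355). PPT1, which removes palmitate from proteins, spread from 47.7 to 83.6 CPM in NC and from 35.7 to 112 CPM in shPRMT6, so that its log2 fold change of 0.35 had an SE of 0.420. Of its exon bases 23.4% lie across CAP1 on the opposite strand, which had 629 CPM in NC and 788 CPM in shPRMT6. The part of CAP1 in the PPT1 counts was not tested. LIPA, the acid lipase of lysosomal cholesteryl ester breakdown, had 92.7 ± 7.75 and 87.9 ± 11.5 CPM with overlapping groups.

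The glycosidases were mixed, with 3 of 12 higher (25%, beside 9.51% of all genes) and 2 lower (16.7%, beside 9.06% of all genes). Their median log2 fold change was 0.11. HEXA, the α-subunit of β-hexosaminidase and the gene of Tay-Sachs disease, rose from 84.7 ± 3.46 to 102 ± 1.31 CPM (0.27, SE 0.0578, adjusted p = 0.0229). FUCA2, a fucosidase, rose from 78.1 ± 2.41 to 93.8 ± 2.29 CPM (0.26, adjusted p = 0.0233), and MANBA, the β-mannosidase, from 48.7 ± 3.56 to 62.4 ± 2.96 CPM (0.36, adjusted p = 0.0262). These 3 were small changes, and each lost the call in 4 or 5 of the 6 fits that left out a library. Stretches of 75 bases that occur in another annotated gene made up 12.3% of the transcripts of HEXA, 9.15% of those of FUCA2 and 9.28% of those of MANBA.

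GAA, the acid α-glucosidase that degrades glycogen and is missing in Pompe disease, fell. It had 15.1, 14.8 and 15 CPM in NC and 9.38, 9.59 and 9.88 CPM in shPRMT6, among the tightest groups in the list, with a log2 fold change of -0.64 (SE 0.0871, adjusted p = 0.00488). GUSB, β-glucuronidase, often used as a reference gene in quantitative PCR, fell too, from 47.3, 54.3 and 51.3 CPM to 37.7, 32.1 and 39.5 CPM (-0.48, SE 0.102, adjusted p = 0.0216). It lost the call in 4 of the 6 fits that left out a library. GLA, the α-galactosidase of Fabry disease, had 23.9 ± 1.85 CPM in NC and 29.2 ± 2.00 CPM in shPRMT6 and missed the threshold (0.29, unadjusted p = 0.0227, adjusted p = 0.0902). The other 6 glycosidases had log2 fold changes from -0.48 to 0.16 with no call.

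Of the 5 sulfatases, which strip sulfate from glycosaminoglycans and sulfolipids, 1 was higher, so that 20% were called, near the 18.6% of all genes. SGSH, heparan sulfamidase, had 12.5, 10.6 and 11.5 CPM in NC and 19.8, 18.4 and 20.0 CPM in shPRMT6, with a log2 fold change of 0.75 (SE 0.101, adjusted p = 0.00472). It lies 86836 bases from GAA on chromosome 17, so a gene that rose and a gene that fell lie within that distance there. Genes that lie between them were not examined. GALNS, which acts on keratan sulfate, had 76.3 ± 4.24 and 85.9 ± 3.98 CPM and did not pass (0.17, unadjusted p = 0.0463, adjusted p = 0.146). ARSA, ARSB and IDS had log2 fold changes from 0.00 to 0.27 with no call, and IDS, the most abundant sulfatase, stood at 304 ± 15.4 and 305 ± 14.7 CPM.

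The membrane and transport proteins had the lowest median log2 fold change of the role groups, 0.06. Of these 10, 2 were higher (20%, beside 9.51% of all genes) and 1 was lower (10%, beside 9.06% of all genes). NPC2, the soluble cholesterol carrier of the lysosome, had 108, 69.4 and 74.2 CPM in NC and 146, 143 and 136 CPM in shPRMT6. NC replicate 1 was nearest to the shPRMT6 libraries but the groups did not overlap (log2 fold change 0.75, SE 0.166, adjusted p = 0.0244), and the call was kept only in the fit without NC replicate 1 among those leaving out a library. Its membrane partner NPC1 had 156 ± 15.2 and 168 ± 12.4 CPM with overlapping groups (0.11, SE 0.0934, adjusted p = 0.495). TMEM192, a lysosomal membrane protein widely used as a handle to purify lysosomes, had 20.8, 24.7 and 26 CPM in NC and 33.6, 33.3 and 33.5 CPM in shPRMT6 (0.49, SE 0.101, adjusted p = 0.0201). It lost the call when any shPRMT6 library was left out.

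CLN3, a multispanning membrane protein of juvenile neuronal lipofuscinosis, was lower, at 15 ± 1.00 CPM in NC and 11.4 ± 0.960 CPM in shPRMT6 (-0.40, SE 0.108, adjusted p = 0.0479). That call was lost in each of the 6 fits that left out a library, and 25.7% of its stretches of 75 bases occur in another annotated gene. CTNS, the cystine exporter, had 19.7, 13.8 and 19 CPM in NC and 18.1, 33.0 and 29.8 CPM in shPRMT6. The groups overlapped through shPRMT6 replicate 1, and the log2 fold change of 0.62 (SE 0.248) had an unadjusted p of 0.0424 and an adjusted p of 0.138. The structural proteins of the membrane were near zero change: LAMP1 had a log2 fold change of -0.08 (SE 0.0486), LAMP2 one of 0.10 (SE 0.0708) and CD63, a tetraspanin, one of -0.10 (SE 0.0662), all with no call, though the LAMP1 groups did not overlap. MCOLN1, the calcium channel of the lysosome, stood at 16.2 ± 1.05 and 16.3 ± 2.04 CPM.

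**Figure D3:**
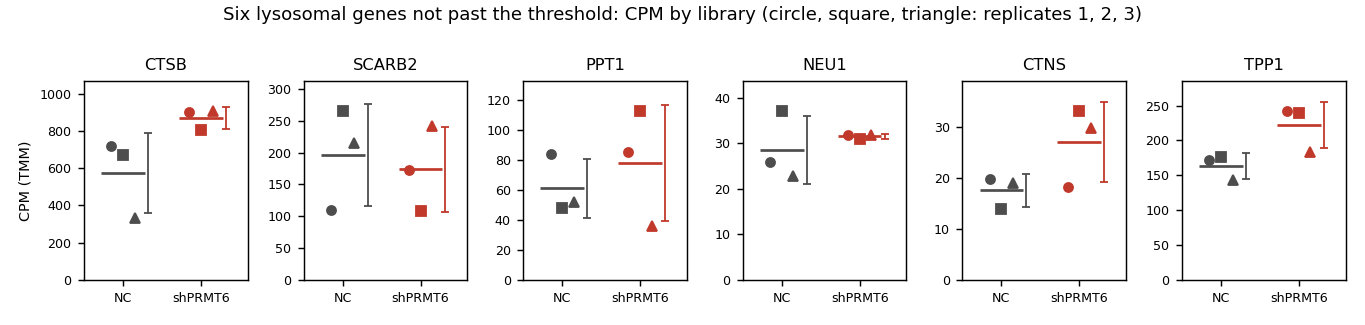
CPM (y axis, from 0) in each library for 6 lysosomal genes with no call, with the mean as a line and the SD as a bar (n = 3 in each group). NC replicate 3 is low for CTSB at 330 CPM, and the SCARB2 and PPT1 libraries are scattered within both groups.

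Some of these genes varied widely among replicates. Of 39 lysosomal genes with a mean of at least 10 CPM, 7 had a highest library more than 1.5 times the lowest in at least 1 group (17.9%), and so did 17.9% of 9527 genes of that level. The ratio reached 2.43 in NC and 2.23 in shPRMT6 for SCARB2, a membrane protein of the lysosome also known as LIMP-2. It was 3.14 in shPRMT6 for PPT1, 2.18 in NC for CTSB and 1.63 in NC for NEU1, a sialidase. The SE of the log2 fold change was 0.388 for SCARB2 and 0.420 for PPT1, so that changes of the size of most calls in the list were not detectable for these genes.

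Levels between genes were compared by FPKM. In NC the most abundant were CD63 (324 ± 25.1 FPKM) and PSAP (313 ± 20.3 FPKM), whose libraries overlapped. CTSL followed at 146 ± 3.21 FPKM, above CTSK (80.7 FPKM), CTSD (69.3 FPKM) and CTSB (65.8 FPKM), which overlapped one another. In shPRMT6, PSAP led with 385 ± 5.35 FPKM, above CTSL (305 ± 2.37 FPKM) and CD63 (305 ± 9.27 FPKM), whose libraries overlapped. CTSL thus stood below CD63 in every NC library and beside it in the shPRMT6 libraries. At the low end in NC, 21 genes had 1 to 10 FPKM, and FUCA1 and CTSH were under 1 FPKM.

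Summed over the 45 genes, the FPKM was 1455, 1370 and 1426 in NC and 1728, 1733 and 1725 in shPRMT6, a ratio of means of 1.22 with no overlap. The counts of these genes made up 0.628% to 0.652% of each NC library and 0.743% to 0.756% of each shPRMT6 library. CTSL and PSAP carried most of that difference. Without CTSL the ratio of the summed FPKM was 1.12, and without CTSL and PSAP 1.085. By role, the mean sum was 466 FPKM in NC and 674 FPKM in shPRMT6 for proteases (ratio 1.45), and 369 and 462 FPKM for lipid hydrolases and activators (1.25). The ratio was 1.07 for glycosidases, 1.07 for sulfatases and 1.00 for membrane and transport proteins. These sums are descriptions and were not tested.

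**Figure D4:**
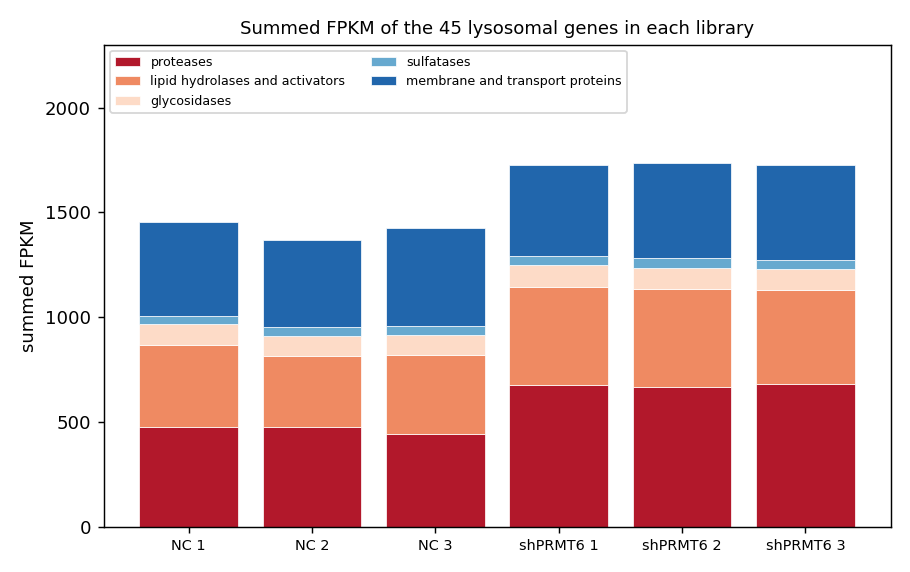
Summed FPKM (y axis, from 0) of the 45 lysosomal genes in each of the 6 libraries, stacked by role. The 3 shPRMT6 bars reach 1725 to 1733 FPKM and the 3 NC bars 1370 to 1455 FPKM, with the protease and lipid segments taller in shPRMT6 and the membrane segment at about the same height.

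**Figure D5:**
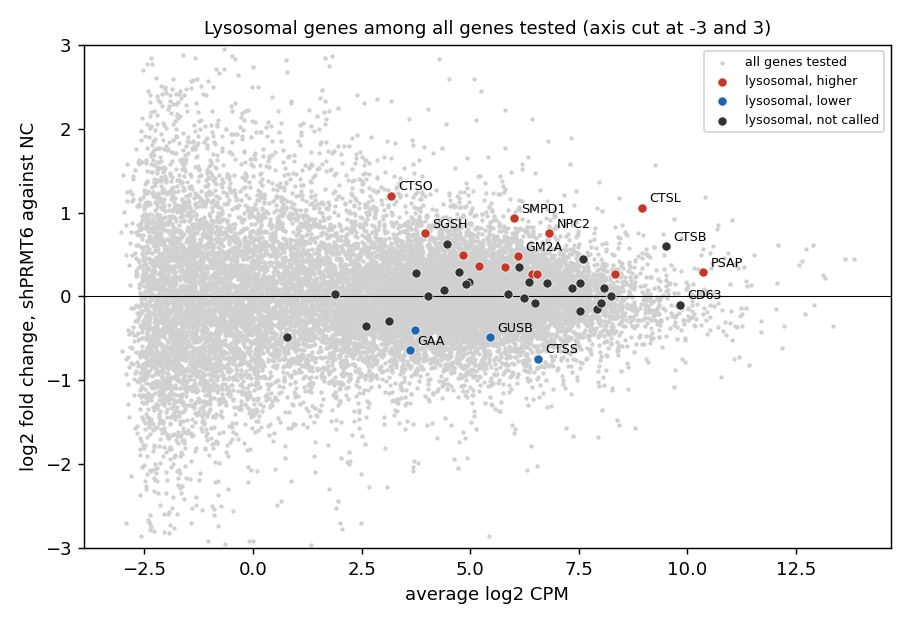
Log2 fold change (y axis, drawn from -3 to 3, with 93 genes of 18106 beyond it) against average log2 CPM (x axis) for all genes tested in grey and the 44 lysosomal genes in colour. Most lysosomal genes lie at middle to high abundance within the grey cloud, and CTSL stands at the upper edge of the genes of its level.

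Most of the genes that rose and had a promoter entry lacked the motif, as did most of the list. CTSO, SGSH, PSAP, LGMN, HEXA and MANBA, which rose, and CTSS, which fell, had no promoter entry and are not covered. The 6 genes with TCACGTGA comprised 1 that was higher (CTSA) and 2 that were lower (GAA and CLN3), with a median log2 fold change of -0.04, and the 26 tested genes without it comprised 6 higher and 1 lower, with a median of 0.12. The shorter CACGTG was found in 7.26% of all promoters, counted by promoter. Counted by gene, 11 held it in at least 1 promoter (1 higher, 2 lower, median -0.08) and 21 tested genes did not (6 higher, 1 lower, median 0.16). The promoters of CTSL, SMPD1, NPC2 and GM2A held neither. No test was made, and a match or its absence says only what letters stand in this window.

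Genes that act on the lysosome from outside the list were counted in the same way. Of 7 MiT/TFE regulators tested, 1 passed (14.3%, beside 18.6% of all genes). A positive log2 fold change was seen for 6 of the 7 (85.7%, beside 48.9% of all genes), with a median of 0.25. These 7 mix the factors with other regulators, so their pooled signs do not describe the activity of the factors. The NC and shPRMT6 libraries did not overlap for 4 of the 7 (57.1%, beside 40.2% of all genes). FNIP1, a partner of folliculin in the control of these factors at the lysosome, rose from 31.1 ± 3.91 to 44.5 ± 1.03 CPM (0.52, adjusted p = 0.0195). The factors themselves did not pass, with log2 fold changes of 0.15 for TFE3 (adjusted p = 0.0842), 0.16 for TFEB (0.652) and 0.73 for MITF (0.0773), and MITF was low, at 1.46 and 2.44 CPM. The groups did not overlap for TFE3 (unadjusted p = 0.0203) or MITF (unadjusted p = 0.0178), and did for TFEB.

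In the sorting and maturation group 3 of 20 genes were higher and 1 was lower, in all 20%, near the 18.6% of all genes. M6PR, the cation-dependent mannose 6-phosphate receptor, had 77.8, 67.4 and 75.1 CPM in NC and 114, 123 and 127 CPM in shPRMT6 (log2 fold change 0.73, SE 0.0794, adjusted p = 0.00233). GNPTAB, which encodes the enzyme that begins the mannose 6-phosphate tag, rose by 0.41 (adjusted p = 0.0186), and AP1G1, a subunit of the AP-1 adaptor that packs hydrolases into vesicles, by 0.36 (adjusted p = 0.0171). The larger receptor, IGF2R, had 555 ± 52.8 and 494 ± 18.2 CPM with no call. SUMF1, which activates all sulfatases by converting a cysteine in their active site, fell from 57.6, 49.9 and 59.5 CPM to 41.7, 35.9 and 36.9 CPM (-0.54, SE 0.0995, adjusted p = 0.0130), while none of the 5 sulfatases in the list fell past the threshold.

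Among the cystatins, inhibitors of cysteine cathepsins, 3 of 8 were abundant enough to test and 1 passed (33.3% of 3, beside 18.6% of all genes). CSTB, the intracellular inhibitor cystatin B, had 1209 ± 51.6 CPM in NC and 1730 ± 60.8 CPM in shPRMT6 (log2 fold change 0.52, SE 0.0533, adjusted p = 0.00197), and so rose along with CTSL. CST3, the secreted inhibitor cystatin C, had 93.0 ± 8.47 and 99.3 ± 5.99 CPM with no call.

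Of 37 further lysosomal genes tested, 9 were higher and 2 lower, 29.7% in all beside 18.6% of all genes, with a median log2 fold change of 0.09. Those with the smallest p included OSTM1, which was higher by 0.65 (adjusted p = 0.00187) and partners the chloride antiporter CLCN7, then GPNMB, a glycoprotein of lysosome-related organelles, which was higher by 1.83 (adjusted p = 0.00254) from a low 1.29 ± 0.183 CPM to 4.59 ± 0.763 CPM. HGSNAT, which acetylates heparan sulfate in the same breakdown path as SGSH, was higher by 0.44 (adjusted p = 0.00922). LAPTM4B and LAPTM5, both small membrane proteins of late endosomes and lysosomes, were lower, with log2 fold changes of -0.35 (adjusted p = 0.0128) and -0.83 (adjusted p = 0.0148).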

How the data were processed

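The 6 libraries of U87 RNA, 3 NC and 3 shPRMT6, were prepared with a kit that does not mark strand. The authors deposited raw read counts per gene and FPKM for each library. The submitters' processing notes name HISAT2, HTSeq 0.13.5 and GRCh38. The annotation release and the strand setting of the counting are not given in the sources used here. Replicates are called independent in the methods of the study, but the labels do not say how cultures were kept apart. The p-values set each difference against the spread between these libraries. Whether that is a spread between separate cultures is not known.

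Counts were fitted with edgeR 4.0.16 (R 4.3.3) as quasi-likelihood models with TMM factors and filterByExpr on the whole table, checked on simulated data first. SEs were taken as the log2 fold change over the square root of F. FPKM served only for levels between genes and for alternatives with limma 3.58.1, and DESeq2 1.42.0 was another alternative. The replicate pairs of each group differed by 39.1 to 63.1 chi-square per degree of freedom, so none was a duplicate. Each named gene's place and exon overlaps came from GENCODE release 29, and promoters from RefSeq on GRCh38.p14.

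The alternatives were other scaling factors, other filters on low values, DESeq2, limma on FPKM, a stricter threshold, the replicate number as a block and each library left out in turn. The members and lists were chosen with earlier results of these data known. Named were all listed genes past an adjusted p of 0.05, those past an unadjusted p of 0.05, those left out by the filter, PRMT6 and up to 6 genes of each context list with the smallest p, of which 1 is not reported here. CTSB, CTSC, CTSD, CTSF, CTSZ, PPT1, LIPA, IDS, ARSA, ARSB, NPC1, LAMP1, LAMP2, CD63, MCOLN1, SCARB2, NEU1, FUCA1, TFE3, TFEB, MITF, IGF2R and CST3 were named in addition, after their values were seen.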

Additional observations from a re-analysis of the deposited data

How the results depend on the processing

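No log2 fold change of a lysosomal gene changed direction with a call under any of the alternatives that were run, and CTSL, CTSO, GAA, GM2A and SGSH passed in all 16 fits. The 17 lysosomal genes called (13 higher, 4 lower) became 7 (6 higher, 1 lower) with limma fitted to log2(FPKM + 1) of every gene, with no filter on low values, where the share of all genes called was 1.77%, and 6 (4 higher, 2 lower) at an adjusted p under 0.01. Leaving out a library gave 7 to 15 called (5 to 12 higher, 2 to 3 lower), beside 9.25% to 16.9% of all genes. It gave a median log2 fold change of 0.14 to 0.18 beside the 0.16 of all libraries, and 2 to 4 genes by the methods threshold. That count, 2 with all libraries, was 1 with limma on log2(FPKM + 1), with the filter and without it. The 17 called genes of the 4 context lists became 5 without the FPKM filter, 5 at an adjusted p under 0.01 and 7 to 16 with a library left out. The share of all genes was not counted at an adjusted p under 0.01, nor for the methods threshold in the alternatives. The log2 fold change of PRMT6 was -0.47 with limma on log2(FPKM + 1), both with the filter (adjusted p = 0.0186) and without it (adjusted p = 0.158), -0.80 with the pseudocount of 0.1, and -1.0 to -0.73 with a library left out. The cause of these differences was not tested, other than that a left-out library leaves fewer samples. DESeq2 called 19, adding CTNS and TPP1, beside 13.5% of all genes. No scaling factors and upper quartile factors each called 17, beside 18.3% and 18.5% of all genes. Over these alternatives 28 to 32 genes had a positive log2 fold change, beside 31.

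Same-numbered libraries showed no shared deviations, with correlations of -0.0136, -0.0534 and -0.0259. These correlations cannot settle whether libraries of the same number were prepared together, which the labels do not say. A fit with the replicate number as a block called 9 lysosomal genes (7 higher, 2 lower), 8 of them among the 17, and 10.3% of all genes. With the block, 11 genes of the context lists passed, and the log2 fold change of PRMT6 was -0.88 with an adjusted p of 0.0803.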
